A study of Homo sapiens with 12 samples.

Results

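The 10 genes described here belong to insulin and receptor signaling and to the FOXO feedback that acts on it. They were taken by symbol from the deposited table of 17085 genes: the receptors INSR, IGF1R, ERBB2 and ERBB3, the receptor adaptors IRS1 and IRS2, the PI3K inhibitor PIK3IP1, the transcription factors FOXO1 and FOXO3, and KLHL24. All 10 were found, and 9 of them passed the filter on low counts, as did 12841 genes in all. ERBB3 did not pass it. The members were chosen with their measured levels in the 4 treatment groups in view, so their levels and fold changes are given as a description, without p values.

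The cells were 786-O, a human line established from a renal carcinoma that lacks functional VHL, and their RNA was sequenced. Cells were kept for 24 h in DMSO as the control group, in everolimus, in 1.5 µM SGI-1027, or in both drugs together (combination group), with 3 libraries per group. Everolimus is a rapamycin analog that inhibits mTOR complex 1, and SGI-1027 is an inhibitor of DNA methyltransferases. The dose of everolimus was 5 µM in the sample records and in the paper, while the protocol text of the records gives 10 µM for everolimus alone. That text gives 5 µM for the combination. If it is right, comparisons of the combination with everolimus alone also differ in everolimus dose. All groups share one wild-type cell line, and the records do not state whether the 3 libraries within each group stem from separate cultures, so p values measure the spread between these libraries, which may be technical.

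Insulin and insulin-like growth factors bind INSR and IGF1R, receptor tyrosine kinases that phosphorylate IRS proteins, which then bind PI3K and lead to activation of AKT and mTOR complex 1. AKT phosphorylates FOXO transcription factors and keeps them out of the nucleus, and FOXO proteins in turn can activate genes of receptors and adaptors of the pathway. The S6 kinase downstream of mTOR complex 1 phosphorylates IRS1 and dampens insulin signaling, and inhibitors of mTOR are known to relieve this feedback in many cell types.

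SGI-1027 acts on the enzymes that methylate cytosine in CpG dinucleotides, so the CpG content of the promoters was counted, although methylation itself was not measured. Whether CpG content bears on the changes with SGI-1027 was not tested. Promoter windows of 300 bases, reaching from 250 bases before the start to 50 after it, were matched in RefSeq (GRCh38.p14) for 9 of the 10 members, all but ERBB3. The windows held 47 CpG in IRS1, 50 in IRS2, 36 in INSR, 55 in IGF1R, 24 in ERBB2, 33 in FOXO1 and 19 in KLHL24, and the 4 FOXO3 starts held 47, 42, 40 and 2, against a median of 14 and quartiles of 4 and 28 over 35116 promoters. PIK3IP1 had 6 CpG in each of its 2 windows, fewer than any other member apart from 1 of the 4 FOXO3 starts. The upstream 250 bases of KLHL24 and PIK3IP1 are shown because these were the members with the widest range of levels between groups (ERBB3, at the floor of detection, aside), and capitals mark CG dinucleotides.
KLHL24, chr3:183635373-183635622, plus strand, 15 CpG: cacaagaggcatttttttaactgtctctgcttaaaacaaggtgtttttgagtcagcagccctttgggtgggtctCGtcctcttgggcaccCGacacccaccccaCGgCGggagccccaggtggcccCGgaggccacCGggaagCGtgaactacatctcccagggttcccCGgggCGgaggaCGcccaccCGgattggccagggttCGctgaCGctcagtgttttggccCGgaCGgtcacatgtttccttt
PIK3IP1, chr22:31292535-31292784, minus strand, 4 CpG: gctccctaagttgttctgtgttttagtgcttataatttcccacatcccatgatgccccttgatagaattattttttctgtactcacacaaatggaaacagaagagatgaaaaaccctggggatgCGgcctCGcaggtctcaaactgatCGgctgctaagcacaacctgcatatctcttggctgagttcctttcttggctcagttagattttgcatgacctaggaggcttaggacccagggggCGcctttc

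The same windows were searched on both strands for GTAAACA, the FOXO consensus, which 1202 of 35116 promoters held (3.42%). Among the members, the motif was found only at the second start of PIK3IP1, beginning 16 bases downstream of it on the opposite strand. Its surroundings are shown with the reverse complement of the motif in capitals.
PIK3IP1, chr22:31292455-31292483, minus strand: taaagagaggcTGTTTACcagaacagcat
A match describes letters in this window only, and no match was found in the windows of the other 8 matched members.

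Library totals ranged from 37046231 to 41516976 counts. The 8 renal carcinoma markers, PAX8 and VIM among them, were above 1 CPM in every library, with summed levels of 8877 to 10742 CPM, whereas the 4 leukocyte markers summed to at most 0.436 CPM and the 3 endothelial markers to at most 0.403. The 2 fibroblast markers in the table summed to 4.19 to 8.32 CPM, of which only 1, COL1A1, was above 1 CPM in every library. Taken in pairs, libraries of one group differed by a chi-square of 3.04 to 16.4 per gene, and DMSO replicate 1 and SGI-1027 replicate 3 stood farthest from their group. Calls of members that change without these libraries are given with and without them, and values of members can shift as well. Since RNA was taken from whole cultures, fewer cells of one kind and less RNA per cell cannot be told apart. According to the paper, both drugs together raised the release of lactate dehydrogenase from this cell line, and neither drug alone did. It used the doses it gives for sequencing and a shorter treatment, and it proposes early membrane damage. Combination libraries may thus hold RNA of dying cells or of survivors. How far this bears on values of the combination was not tested.

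Compared per length, in the authors' FPKM, the adaptors and ERBB2 were the most abundant members in DMSO. IRS2 stood at 17.4 ± 0.731 FPKM (SD, n = 3), ERBB2 at 14.0 ± 0.582 and IRS1 at 9.64 ± 0.682. FOXO3 (4.73 ± 0.140) and IGF1R (2.82 ± 0.163) followed. FOXO1, PIK3IP1 and KLHL24 stood between 0.544 and 0.693 FPKM on average, and INSR was at 0.0760 ± 0.0215 FPKM. These ranks use DMSO levels alone, so the order under treatment can differ. The gene lengths and annotation behind the authors' FPKM are not given in the sources used here, so ranks and ratios between genes rest on lengths that could not be checked.

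**Figure D1:**
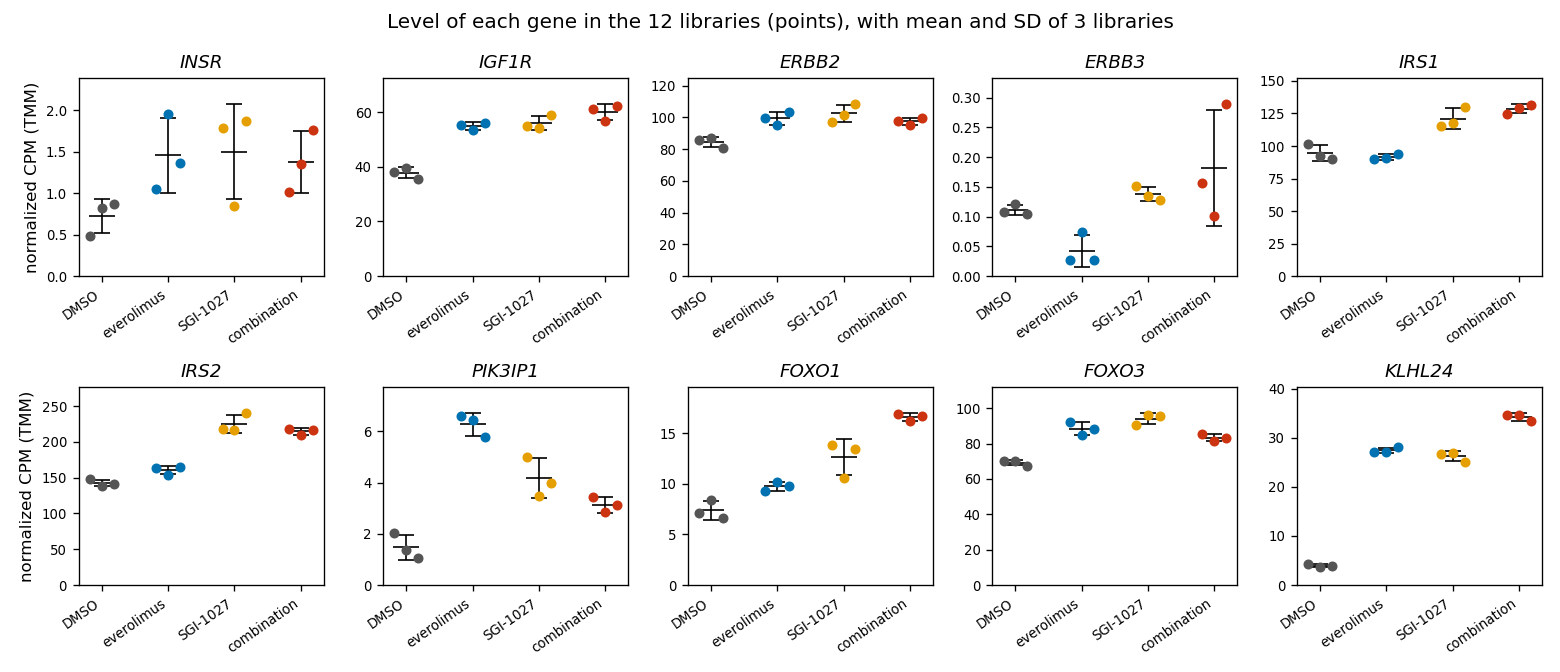
Normalized CPM (y axis, linear, from 0) of the 10 members in the 4 groups (x axis). Points are single libraries, and the black marks are the mean and SD of 3 libraries. KLHL24 stood at 3.69 to 4.27 in DMSO and at 25.1 to 34.7 in all treated libraries, and ERBB3 stayed under 0.3 in every library.

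Among the receptors, IGF1R, the main receptor of insulin-like growth factors, was higher in every treated library than in any DMSO library. Its normalized CPM, the counts scaled to library size with TMM factors, was 38.2, 39.8 and 35.7 in DMSO, 55.2, 53.6 and 56.2 with everolimus, 55.0, 54.1 and 59.2 with SGI-1027 and 61.1, 56.8 and 62.4 in the combination. The SGI-1027 libraries overlapped those of both other treated groups, the everolimus and combination libraries did not overlap each other, and no treated group overlapped DMSO. A gene passed the threshold, or was called, at an adjusted p under 0.05 over all tested genes in edgeR. The log2 fold change (± standard error) was 0.54 ± 0.05 for everolimus, 0.57 ± 0.05 for SGI-1027 and 0.66 ± 0.05 when both were given.

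INSR, the insulin receptor itself, was measured from few reads. Its counts were 18, 34 and 33 in DMSO, 39, 80 and 52 with everolimus, 71, 31 and 73 with SGI-1027 and 39, 54 and 67 in the combination. In normalized CPM the DMSO libraries were at 0.483, 0.826 and 0.864 and the everolimus libraries at 1.05, 1.95 and 1.36. The SGI-1027 libraries were at 1.79, 0.840 and 1.87 and the combination libraries at 1.02, 1.35 and 1.76. SGI-1027 replicate 2 lay within the DMSO range, while the everolimus and combination libraries all lay above it. Log2 fold changes were 1.01 ± 0.34, 1.05 ± 0.34 and 0.92 ± 0.34, with the largest standard errors of the 9 tested members. Without DMSO replicate 1, whose INSR count was the lowest of all, they were 0.79, 0.83 and 0.71, and none of the 3 passed the threshold. The everolimus call was also lost without everolimus replicate 2 (0.73), the SGI-1027 call without DMSO replicate 1 and SGI-1027 replicate 3 together (0.64), and the combination call without combination replicate 3 (0.70), without that pair (0.70) or on a log2(FPKM + 0.1) scale (0.48). On a log2(FPKM + 1) scale the 3 values shrank to 0.10, 0.10 and 0.09 and none passed. Within a library, the FPKM of IGF1R was 19.4 to 55.9 times that of INSR, and the ranges of this ratio overlapped between all 4 groups.

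ERBB2, an orphan receptor that signals by pairing with other ERBB receptors, differed least between groups among the receptors that were tested. It stood at 85.6, 86.7 and 80.9 normalized CPM in DMSO, 99.2, 95.1 and 104 with everolimus, 97.2, 102 and 108 with SGI-1027 and 97.9, 94.9 and 99.5 in the combination. Every treated library was above every DMSO library, and the 3 treated groups overlapped. The log2 fold changes were 0.23 ± 0.05, 0.28 ± 0.05 and 0.21 ± 0.05.

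ERBB3, a neuregulin receptor with little kinase activity that binds PI3K directly, was close to the floor of detection. Its counts were 4, 5 and 4 in DMSO, 1, 3 and 1 with everolimus, 6, 5 and 5 with SGI-1027 and 6, 4 and 11 in the combination. The 3 everolimus libraries, at 1 to 3 counts, lay below the other 9, at 4 to 11. ERBB3 did not pass the filter on low counts and was not tested, and no fold change is given. Its DMSO level was 0.0195 ± 0.00154 FPKM, and in every library ERBB2 was at least 325 times as abundant per length, a ratio that rests on these few ERBB3 counts. ERBB4, the remaining member of this receptor family, had 1, 1 and 0 counts in DMSO and 0 in all 9 treated libraries.

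The 2 adaptors behaved differently under everolimus. IRS1, which links INSR and IGF1R to PI3K and is a substrate of S6 kinase, stood at 101, 92.4 and 90.2 normalized CPM in DMSO and 90.2, 90.5 and 94.0 with everolimus, and these groups overlapped. With SGI-1027 it was 115, 118 and 130.0 and in the combination 125, 129 and 132, all above the first 2 groups and overlapping each other. The log2 fold change was -0.05 ± 0.05 for everolimus, a sign that turned with upper-quartile scaling (0.03) and without DMSO replicate 1 (0.00), 0.36 ± 0.05 for SGI-1027 and 0.44 ± 0.05 when both were given. IRS1 was the 1 tested member that everolimus alone did not move past the threshold.

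IRS2, the second adaptor and the most abundant member per length in DMSO, was higher in each treated group. It measured 148, 138 and 142 normalized CPM in DMSO, 163, 154 and 165 with everolimus, 219, 217 and 240.2 with SGI-1027 and 218, 209 and 217 in the combination. Everolimus libraries lay between DMSO and the 2 groups that held SGI-1027, without overlap on either side, and the latter 2 groups overlapped. The log2 fold changes were 0.17 ± 0.04, 0.66 ± 0.04 and 0.59 ± 0.04. The ratio of IRS2 to IRS1 within a library, in FPKM, was 1.75 to 1.88 in DMSO, 2.05 to 2.17 with everolimus, 2.21 to 2.27 with SGI-1027 and 1.94 to 2.09 in the combination. The ratio was higher in all 9 treated libraries than in any DMSO library, and the combination overlapped the everolimus group but neither of the others.

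PIK3IP1, a membrane protein that binds the catalytic subunit of PI3K and inhibits it, was highest with everolimus alone. Its counts were 75, 57 and 40 in DMSO, 244, 264 and 221 with everolimus, 199, 129 and 156 with SGI-1027 and 132, 113 and 119 in the combination. In normalized CPM these were 2.01, 1.38 and 1.05, then 6.59, 6.45 and 5.77, then 5.02, 3.49 and 4.0, and 3.44, 2.83 and 3.13. The 4 groups did not overlap, and the combination was the lowest of the 3 treated groups. Log2 fold changes against DMSO were 2.08 ± 0.19, 1.50 ± 0.20 and 1.08 ± 0.20. Without DMSO replicate 1, whose PIK3IP1 count was the highest of its group, they were 2.36, 1.77 and 1.36. The combination was lower than everolimus alone, with a log2 fold change of -1.00 ± 0.18, and against SGI-1027 alone the value was -0.41 ± 0.18.

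FOXO1 and FOXO3 are forkhead transcription factors that AKT inactivates, and FOXO1 was highest with both drugs. It stood at 7.14, 8.45 and 6.60 normalized CPM in DMSO, 9.32, 10.2 and 9.77 with everolimus, 13.8, 10.6 and 13.5 with SGI-1027 and 16.9, 16.2 and 16.7 in the combination. No group overlapped another, in the order DMSO, everolimus, SGI-1027 and combination. The log2 fold changes were 0.40 ± 0.11, 0.77 ± 0.10 and 1.17 ± 0.10.

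FOXO3 was more abundant and varied less. It stood at 70.1, 70.3 and 67.4 normalized CPM in DMSO, 92.3, 84.8 and 88.3 with everolimus, 90.6, 95.9 and 95.8 with SGI-1027 and 85.2, 81.5 and 83.1 in the combination. All treated libraries were above DMSO, and the combination did not overlap SGI-1027 alone but overlapped everolimus alone. Its log2 fold changes were 0.35 ± 0.04, 0.44 ± 0.04 and 0.27 ± 0.04, so the combination had the smallest of the 3. Per length, FOXO3 exceeded FOXO1 by 6.06 to 7.44 times in DMSO, by 6.05 to 7.22 with everolimus, by 4.78 to 6.60 with SGI-1027 and by 3.62 to 3.67 in the combination. The combination libraries lay below all 9 others in this ratio.

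KLHL24, a kelch-like protein that brings substrates to a cullin-3 ubiquitin ligase, differed most from DMSO among the tested members. It measured 4.27, 3.69 and 3.85 normalized CPM in DMSO, 27.2, 27.0 and 28.1 with everolimus, 26.7, 27.0 and 25.1 with SGI-1027 and 34.7, 34.6 and 33.3 in the combination. The highest SGI-1027 library and the lowest everolimus library both rounded to 27.0 without overlapping, and the combination libraries lay above both groups. The log2 fold changes were 2.80 ± 0.07, 2.74 ± 0.07 and 3.12 ± 0.07, or 6.97-fold, 6.68-fold and 8.70-fold.

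**Figure D2:**
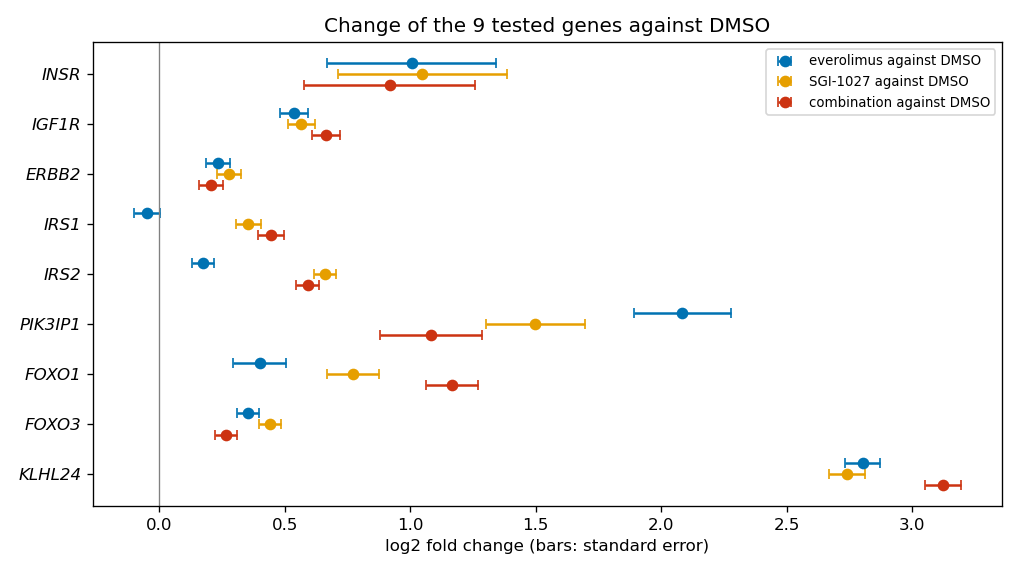
Log2 fold change against DMSO (x axis) of the 9 tested members (y axis), for everolimus, SGI-1027 and the combination in 3 colors, with bars of 1 standard error. All values lie above 0 except IRS1 with everolimus (-0.05, positive with upper-quartile scaling), and KLHL24 lies farthest to the right at 2.74 to 3.12.

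Counted over the 9 tested members, 8 passed an adjusted p of 0.05 upward and 0 downward with everolimus, where 27.2% of all tested genes passed upward and 29.2% downward. All 9 did so upward with SGI-1027 (32.0% of all genes upward, 30.6% downward) and in the combination (32.8% upward, 33.4% downward). With the stricter rule used for DEGs, a change of 1 or more on the log2 scale with a raw p under 0.05, 3 members were DEGs upward in each comparison and 0 downward. These were INSR, PIK3IP1 and KLHL24 with everolimus, where 3.89% of all genes passed upward and 0.903% downward. The same 3 passed with SGI-1027 (6.25% and 1.07% of all genes), and PIK3IP1, FOXO1 and KLHL24 passed in the combination (7.25% and 2.71%). The members were selected on these contrasts, so the counts describe the selection and nothing is read from them. The 3 comparisons share the same DMSO libraries, and upper-quartile scaling left the adjusted counts of members at 8, 9 and 9, while it moved the calls over all genes with everolimus from 3488 higher and 3749 lower to 4480 and 2901. On a log2(FPKM + 1) scale, which understates changes of genes near or under 1 FPKM, the values for everolimus, SGI-1027 and the combination were 1.64, 1.58 and 1.91 for KLHL24, 1.16, 0.75 and 0.52 for PIK3IP1, and 0.18, 0.37 and 0.61 for FOXO1, with the same order of groups as before.

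Against everolimus alone, the combination was higher for IRS1 (0.49 ± 0.05), IRS2 (0.42 ± 0.04), FOXO1 (0.77 ± 0.10) and KLHL24 (0.32 ± 0.06), and lower for PIK3IP1, as given above. Over all tested genes 20.1% were called higher and 19.2% lower in this comparison. The everolimus dose may differ between these groups, as stated in the opening. Against SGI-1027 alone, FOXO1 (0.39 ± 0.10) and KLHL24 (0.38 ± 0.06) were called higher and FOXO3 (-0.18 ± 0.04) lower, where 9.40% and 10.2% of all genes were. Without DMSO replicate 1 and SGI-1027 replicate 3, IRS1 (0.14) and IGF1R (0.14) were also called higher than with SGI-1027 alone, which made 5 members in place of 3. Calls over all genes rose there too, from 1207 higher and 1311 lower to 1635 and 1654 of 12921 tested. IRS1 was also called against SGI-1027 alone without SGI-1027 replicate 3 (0.14), and IGF1R was called higher than with everolimus alone in 5 of 21 alternatives: without DMSO replicate 3 (0.13), SGI-1027 replicate 3 (0.13), combination replicate 2 (0.17) or the pair just named (0.13), and in a fit of the contrasted groups alone (0.13). For INSR and ERBB2 the combination lay within 0.13 of each single drug on the log2 scale, with a standard error of 0.31 for INSR and 0.05 for ERBB2.

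The combination was then set beside the sum of the log2 fold changes of the 2 drugs alone, which is the value expected if the folds multiply. This reading takes no account of the cell damage reported with both drugs, and it needs matched doses. If everolimus alone was at 10 µM, as the protocol text has it, against 5 µM in the combination, the doses were not matched. For KLHL24 the sum was 5.54 and the measured change 3.12, a difference of -2.42 ± 0.09. PIK3IP1 gave a sum of 3.58, a measured 1.08 and a difference of -2.50 ± 0.26. Without DMSO replicate 1 and SGI-1027 replicate 3 the PIK3IP1 difference was -2.80. For FOXO1 the sum and the measured change were both 1.17, with a difference of -0.01 ± 0.14. FOXO1 was thus the member closest to multiplied folds, and KLHL24 and PIK3IP1 were the farthest below them.

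The difference was -1.13 ± 0.46 for INSR, -0.53 ± 0.06 for FOXO3, -0.44 ± 0.08 for IGF1R, -0.31 ± 0.07 for ERBB2, -0.24 ± 0.06 for IRS2 and 0.14 ± 0.07 for IRS1. Without DMSO replicate 1 and SGI-1027 replicate 3 the INSR difference was -0.73. By the fit over all genes, IRS2, IGF1R, ERBB2, PIK3IP1, FOXO3 and KLHL24 were called below the sum and 0 members above it, where 22.1% of all tested genes were called below and 23.6% above. INSR was also called below the sum in 7 of 20 alternatives: without everolimus replicate 1 (-1.32), SGI-1027 replicate 2 (-1.42) or combination replicate 3 (-1.35), with upper-quartile scaling (-1.21), in DESeq2 (-1.12), without a filter (-1.12) and with at least 10 counts in every library (-1.15). IRS1 was called above the sum in 2 of 20, without SGI-1027 replicate 3 (0.19) and without it and DMSO replicate 1 together (0.14). Upper-quartile scaling gave 7 members below, INSR included, and moved the calls over all genes from 2833 below and 3028 above to 3578 and 2335.

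**Figure D3:**
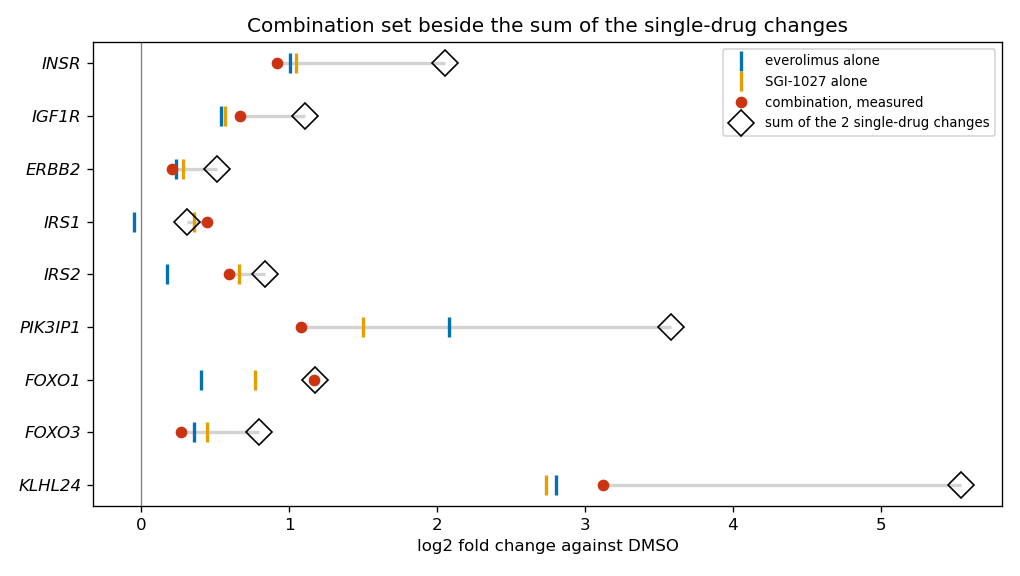
Log2 fold change against DMSO (x axis) of the 9 tested members (y axis): ticks for each drug alone, filled circles for the measured combination, open diamonds for the sum of the 2 single-drug changes, joined by a grey line. Circle and diamond coincide for FOXO1 (both 1.17) and lie farthest apart for PIK3IP1 (1.08 and 3.58) and KLHL24 (3.12 and 5.54).

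The genes whose normalized log2 CPM followed 8 of the tested members most closely over the 12 libraries were found among tested genes averaging at least 50 counts. KLHL24 was followed most closely by LAMB2 (Pearson r = 0.995), IRS1 by ABTB2 (0.993), IGF1R by ABCA3 (0.985), IRS2 by CAPN1 (0.983) and FOXO1 by MANBA (0.983). PIK3IP1 was followed by EFNA1 (0.98), ERBB2 by GLB1L (0.98) and FOXO3 by MYLK (0.979). These r values describe 12 libraries in 4 groups, which share treatments and scaling, and are the highest of many. Among the members themselves, KLHL24 and IGF1R (r = 0.972), ERBB2 and FOXO3 (0.940) and IRS1 and IRS2 (0.917) were most alike, and IRS1 and PIK3IP1 least (0.0811).

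LAMB2, a laminin chain and the closest to KLHL24 in pattern, changed far less in size: its log2 fold changes were 0.62 ± 0.04, 0.56 ± 0.04 and 0.67 ± 0.04 with everolimus, SGI-1027 and the combination (edgeR adjusted p = 1.15e-10, 1.93e-10 and 1.16e-11). ABCA3, a lipid transporter and the closest to IGF1R, changed more than IGF1R did, by 1.79 ± 0.11, 2.03 ± 0.11 and 2.18 ± 0.11 (adjusted p = 4.30e-10, 3.81e-11 and 8.20e-12). MANBA, the lysosomal beta-mannosidase, had the graded order of FOXO1, with 0.37 ± 0.07, 0.74 ± 0.07 and 1.02 ± 0.06 (adjusted p = 1.06e-04, 1.70e-08 and 1.41e-10). LAMB2, ABCA3 and MANBA were picked for their likeness to members over these same libraries. Their p values are therefore no independent test of a change.

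The remaining genes of the pathway were taken from lists typed by hand, and their changes are log2 fold changes ± standard error against DMSO for everolimus, SGI-1027 and both drugs, in that order. The lists were chosen with earlier results of these data known, so their counts are a description. Of 17 ligands and binding proteins of these receptors, 10 were tested, with 4 higher and 4 lower with everolimus, 6 and 1 with SGI-1027, and 4 and 4 in the combination. IGF2, a ligand of IGF1R and INSR, rose by 0.96 ± 0.13, 1.35 ± 0.12 and 0.75 ± 0.13 on the log2 scale (edgeR adjusted p = 3.64e-06, 2.94e-08 and 4.74e-05), from 6.70 ± 0.737 normalized CPM in DMSO (SD, n = 3). IGFBP7, a secreted binding protein, rose by 0.79 ± 0.04, 0.71 ± 0.04 and 0.60 ± 0.04 (adjusted p = 3.33e-11, 4.89e-11 and 3.93e-10). IGFBP5 changed in opposite directions, by -0.71 ± 0.18 with everolimus and 0.62 ± 0.16 with SGI-1027 (adjusted p = 0.00214 and 0.00298), and by -0.62 ± 0.17 in the combination (adjusted p = 0.00436).

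NRG1, a neuregulin and ligand of ERBB3, fell in the combination, with a log2 fold change of -0.48 ± 0.07 (adjusted p = 4.61e-06). With everolimus alone its value was 0.19 ± 0.07, a call that was lost under 5 alternatives, among them the omission of DMSO replicate 2 or 3 or of everolimus replicate 2 or 3. IGF1 itself had 1 count in 1 SGI-1027 library and 0 in the other 11, and INSRR, the insulin receptor-related receptor, had at most 2 counts per library.

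Of 40 tested receptor adaptors and phosphatases, 8 rose and 16 fell with everolimus, 14 and 12 with SGI-1027, and 12 and 13 in the combination. GAB2, a docking protein for PI3K, rose by 0.65 ± 0.09, 0.74 ± 0.09 and 1.23 ± 0.09 (adjusted p = 4.98e-06, 8.14e-07 and 5.57e-10), and CBLB, a ubiquitin ligase that removes activated receptors, by 1.03 ± 0.09, 1.09 ± 0.09 and 0.88 ± 0.09 (adjusted p = 1.46e-08, 4.38e-09 and 5.46e-08). SOCS3, a suppressor of cytokine and insulin signaling, was lower, with -0.38 ± 0.08, -0.82 ± 0.08 and -0.71 ± 0.08 (adjusted p = 4.45e-04, 8.46e-08 and 3.92e-07). GRB10, which binds INSR and IGF1R and is a substrate of mTOR complex 1, rose with SGI-1027 by 0.32 ± 0.05 and in the combination by 0.63 ± 0.05 (adjusted p = 1.95e-05 and 3.01e-09), and its value with everolimus was 0.07 ± 0.05. RPS6KB1, the S6 kinase that acts on IRS1, was lower in the combination (-0.27 ± 0.06, adjusted p = 5.68e-04), with values of -0.12 and -0.13 for the single drugs that did not pass the threshold.

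Of 25 tested receptor tyrosine kinases outside the members, 6 rose and 7 fell with everolimus, 6 and 10 with SGI-1027, and 7 and 10 in the combination, where upper-quartile scaling gave 8 and 6, 6 and 6, and 7 and 8. FGFR4, a fibroblast growth factor receptor, fell, with log2 fold changes of -0.92 ± 0.06, -1.03 ± 0.06 and -1.60 ± 0.06 (adjusted p = 6.41e-10, 7.60e-11 and 1.92e-13). NTRK3, a neurotrophin receptor, fell, with a log2 fold change of -1.35 ± 0.07 in the combination (adjusted p = 1.61e-11), against -0.40 and -0.20 with the single drugs, and the SGI-1027 call was lost under 4 alternatives. IGF1R and ERBB2, by comparison, were higher in each treated group, as described above.

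Of 37 tested PI3K and AKT genes, 8 rose and 13 fell with everolimus, a split that upper-quartile scaling turned to 13 and 9. With SGI-1027 it was 16 and 11, and in the combination 12 and 11. AKT1 and AKT2 were lower in the combination (-0.29 ± 0.03 and -0.27 ± 0.04, adjusted p = 8.57e-07 and 3.05e-05), with the same signs in both single-drug groups. PIK3CA, the alpha catalytic subunit of PI3K, did not pass the threshold, with 0.10 ± 0.08, 0.11 ± 0.08 and 0.19 ± 0.08. SGK2, a kinase related to AKT, fell, with log2 fold changes of -1.23 ± 0.11, -1.60 ± 0.11 and -2.52 ± 0.12 (adjusted p = 2.60e-08, 7.92e-10 and 2.97e-12). SGK1 rose with SGI-1027 (0.44 ± 0.07, adjusted p = 4.73e-05) and in the combination (0.65 ± 0.07, adjusted p = 3.75e-07).

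**Figure D4:**
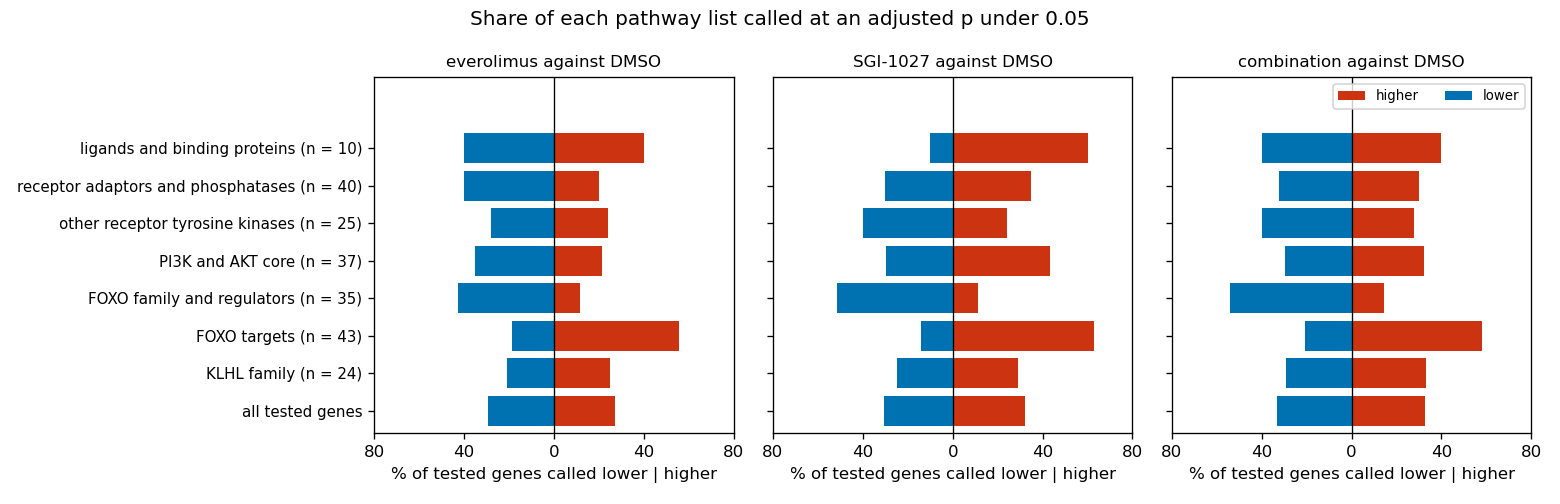
Share of the tested genes of each list, in percent, called lower (left) or higher (right) at an adjusted p under 0.05, for the 3 comparisons with DMSO, with all 12841 tested genes at the bottom. The FOXO target list reached 62.8% higher with SGI-1027 and the list of FOXO family members and regulators 54.3% lower in the combination, beside 32.0% and 33.4% of all genes. The lists were chosen with earlier results of these data known.

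FOXO targets were the list with the most genes higher. This list too was chosen with earlier results of these data known, so its shares beside those of all genes are no independent test. Of 56 listed genes, 43 were tested, and 24 rose and 8 fell with everolimus, 27 and 6 with SGI-1027, and 25 and 9 in the combination. In percent these were 55.8 and 18.6, then 62.8 and 14.0, then 58.1 and 20.9, beside the shares of all genes given above. The median log2 fold change of the list was 0.21, 0.36 and 0.36, where the median of all tested genes was 0.00, 0.02 and 0.01. With upper-quartile scaling the splits were 27 and 7, 30 and 6, and 26 and 8. IGFBP1, TRIB1 and EPHB2 also stand in other lists here.

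FBXO32, the muscle atrophy ubiquitin ligase atrogin-1 and a classical FOXO target, averaged 5.91 ± 0.573 normalized CPM in DMSO and 12.6 ± 0.555, 20.9 ± 1.30 and 30.9 ± 0.350 in the 3 treated groups, in the order used above (SD, n = 3). Its log2 fold changes were 1.09 ± 0.08, 1.82 ± 0.08 and 2.38 ± 0.08 (edgeR adjusted p = 3.68e-09, 1.79e-12 and 2.07e-14), in the same group order as FOXO1. PTK2B, the kinase PYK2, rose by 1.04 ± 0.19, 1.39 ± 0.19 and 1.28 ± 0.19 (adjusted p = 1.37e-04, 3.67e-06 and 8.02e-06). Other targets went down. S1PR1, a sphingosine 1-phosphate receptor, fell from 18.4 ± 0.776 to 2.80 ± 0.106 normalized CPM in the combination, with log2 fold changes of -1.14 ± 0.08, -1.42 ± 0.08 and -2.71 ± 0.09 (adjusted p = 1.90e-09, 7.68e-11 and 3.84e-14). PRDX3, a mitochondrial peroxiredoxin, fell, with log2 fold changes of -0.47 ± 0.06, -0.73 ± 0.06 and -0.82 ± 0.06 (adjusted p = 4.57e-06, 1.19e-08 and 2.13e-09).

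**Figure D5:**
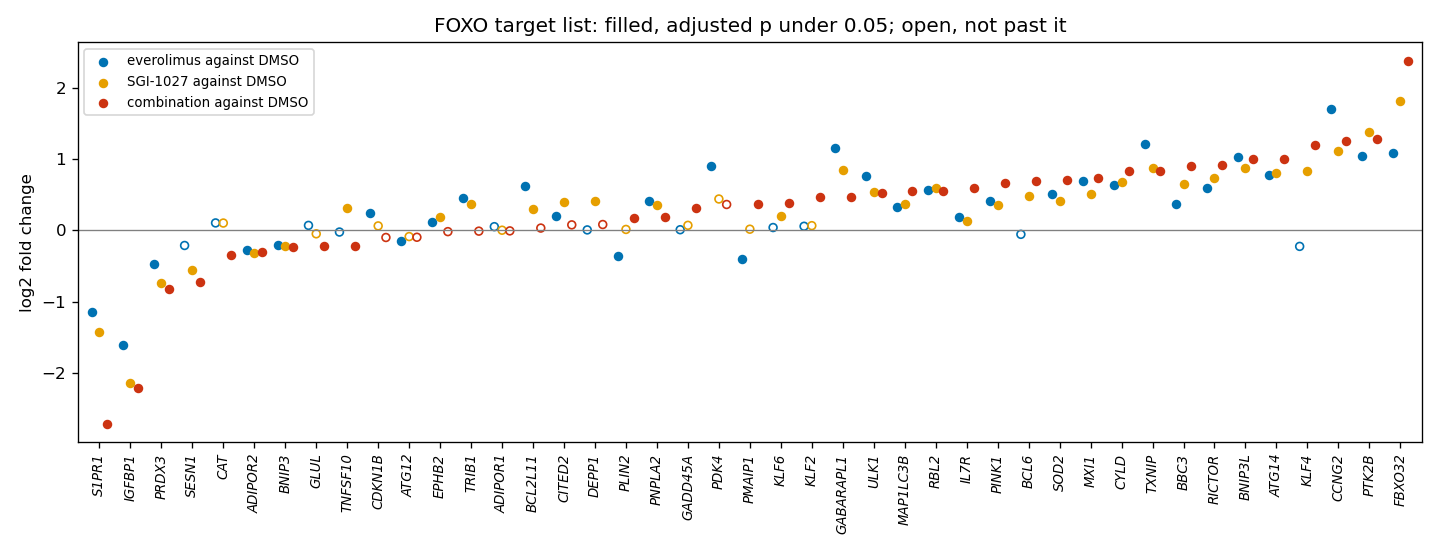
Log2 fold change against DMSO (y axis) of the 43 tested FOXO targets (x axis, ordered by the combination) in 3 colors for the 3 treatments, filled where the adjusted p was under 0.05. Values range from -2.71 (S1PR1) to 2.38 (FBXO32) in the combination, and 25 genes were called higher there and 9 lower.

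Of 35 tested FOXO family members and regulators, 4 rose and 15 fell with everolimus, 4 and 18 with SGI-1027, and 5 and 19 in the combination, with medians of -0.13, -0.17 and -0.15. Upper-quartile scaling gave 7 and 11, 7 and 16, and 6 and 17. FOXO4, the third FOXO gene tested, rose by 0.92 ± 0.09, 0.67 ± 0.10 and 0.73 ± 0.09 (adjusted p = 1.76e-07, 7.73e-06 and 2.23e-06), so all 3 tested FOXO genes were higher in each treated group. FOXO6 had 2 to 9 counts per library and was not tested. PRMT1, an arginine methyltransferase that modifies FOXO1, fell, with log2 fold changes of -0.71 ± 0.04, -0.94 ± 0.04 and -1.06 ± 0.04 (adjusted p = 4.21e-11, 5.80e-13 and 5.78e-14), and so did FOXM1, a forkhead factor of the cell cycle, with -0.54 ± 0.05, -0.81 ± 0.05 and -0.84 ± 0.05 (adjusted p = 7.32e-08, 2.54e-10 and 9.52e-11).

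KLHL24 was set beside its family as the last comparison. Of 24 other tested KLHL genes, 6 rose and 5 fell with everolimus, 7 and 6 with SGI-1027, and 8 and 7 in the combination (8 and 4, 10 and 6, and 11 and 7 with upper-quartile scaling), with medians of 0.07, 0.07 and 0.14. KLHL21, a kelch-like adaptor active in mitosis, rose by 1.02 ± 0.06 in the combination (adjusted p = 6.82e-11) against 0.06 with everolimus. KLHL24 had a larger log2 fold change than any of the 24 in all 3 comparisons with DMSO. It was made a member with its levels known, so this rank is a description. The next highest values were those of KLHL30, named after its values were seen, with 1.28 with everolimus (not past the threshold) and 2.20 with SGI-1027, and of KLHL21 in the combination.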

How the data were processed

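The authors deposited raw counts (whole numbers) by gene symbol and FPKM values computed by the authors for the same genes and 12 libraries (3 per group). Extraction was by TRIzol and the library kit TruSeq Stranded mRNA LT in the paper, but RNeasy and SMARTer in the sample records. The aligner and counting program are not given in the sources used here. The submitters' processing notes name the mouse builds GRCm38 and mm10, although the symbols are human, so no coordinates were assigned to counted genes and promoters are from RefSeq.

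Analysis of the counts used edgeR 4.0.16 (R 4.3.3): filterByExpr left 12841 of 17085 genes, TMM factors were 0.99 to 1.01, and 1 quasi-likelihood fit held all 12 libraries, with group as the only term, as the paper states no model (prior count 0.125). A gene was called at a Benjamini-Hochberg adjusted p under 0.05 over all tested genes. A second rule followed the paper's DEG cut-off (unadjusted p under 0.05, absolute log2 fold change of at least 1). Levels are TMM-normalized CPM. With 37046231 to 41516976 counts per library, precision rested mainly on the spread of 3 libraries, except for INSR, ERBB3 and PIK3IP1. Procedures were tested on simulated data.

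The members and lists were chosen with earlier results of these data known. Named genes were the members, in each list the 2 highest and 2 lowest called genes in the combination with a mean of at least 50 counts, 15 genes by role, and the gene closest in pattern to each member. Some genes that these rules name are not reported here. Correlations used log2 CPM with a prior count of 2. Alternatives were DESeq2 1.42.0, upper-quartile scaling, no filter, at least 10 counts in every library, the replicate number as a block, limma-trend (limma 3.58.1) on log2(FPKM + 1) and log2(FPKM + 0.1), fits of the contrasted groups alone, and leaving out each library. Leaving out DMSO replicate 1 and SGI-1027 replicate 3 together was chosen after seeing the data. IRS4, INS and DCN were not analysed here, and neither were protein sequences.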

Additional observations from a re-analysis of the deposited data

Results flagged for a closer look

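These genes differed between the drugs' effects: the combination departed from the sum of the log2 fold changes under each drug alone, tested as an interaction in the edgeR fit at a Benjamini-Hochberg adjusted p under 0.05. All values are the combination's log2 fold change minus that sum, and 23.6% of all tested genes were called above the sum and 22.1% below it, so a departure was common. If everolimus alone was at 10 µM, as the protocol text has it, the everolimus doses behind these values were not matched. How far the cell damage reported with both drugs bears on them was not tested either. Among the members, which were chosen with these values known, the departure was -2.50 for PIK3IP1, -2.42 for KLHL24, -0.53 for FOXO3, -0.44 for IGF1R, -0.31 for ERBB2 and -0.24 for IRS2.

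Among ligands, adaptors and kinases, IGF2 gave -1.57 (adjusted p = 9.72e-07), IGFBP7 gave -0.91, NRG1 gave -0.61, CBLB gave -1.23 (adjusted p = 1.94e-07) and TIE1 gave -0.67. NTRK3 gave -0.76 and INPP5K gave -0.73. IGF2, IGFBP7, CBLB, TIE1 and INPP5K rose in each treated group, and in the combination less far than the sum. NTRK3, lower in each treated group, fell farther than the sum. NRG1 fell in the combination, while its values with everolimus and SGI-1027 alone were 0.19 and -0.06. Values above the sum were 0.50 for SOCS3, 0.57 for EPHB1, 0.35 for FGFR4, 0.36 for AKT1S1, 0.23 for GRB10 and 0.21 for AKT1. FGFR4, SOCS3, AKT1S1 and AKT1 were lower in each treated group, so for these the positive value means that the combination fell less far than the sum. The call was lost under 10 alternatives for AKT1S1 and under 1 for GRB10.

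Among FOXO genes and their targets, FOXO4 gave -0.87 (adjusted p = 3.40e-05), PTK2B gave -1.15 and FBXO32 gave -0.52, a call lost on log2(FPKM + 1). These genes rose in each treated group, and in the combination less far than the sum. PRMT1 (0.60), FOXM1 (0.50) and PRDX3 (0.38), all lower in each treated group, fell less far than the sum. In the KLHL family the values were 0.62 for KLHL21, -0.32 for KLHL22 and -1.28 for KLHL14, of which the last fell farther than the sum. Among the genes closest in pattern to a member, ABCA3 gave -1.64, MYLK -1.05, EFNA1 -0.70, GLB1L -0.69 and LAMB2 -0.51. Genes close to a member in pattern share its interaction in part by that choice.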

How the results depend on the processing

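Counts of calls over all genes, members and lists stayed within 1.5 times their value in 690 of 697 recomputations, and no value of a member or named gene reversed its direction while called. With the DEG rule in place of the adjusted p, all-gene counts were 615 with everolimus, 941 with SGI-1027 and 1279 in the combination, and 3 members were called in each, by construction of the minimum fold change. Without DMSO replicate 1 and SGI-1027 replicate 3, 5 members were called between the combination and SGI-1027 alone, and calls over all genes rose as well, to 1635 higher and 1654 lower. Leaving out 1 library at a time gave 7 to 8 called members with everolimus, 8 to 9 with SGI-1027 and 8 to 9 in the combination. Over all genes the same omissions gave 6534 to 7643, 7383 to 7999 and 7888 to 8785 calls. Of 1125 recomputed member values 11 lost a call, all of INSR, and 17 gained one. Of 3735 for named genes 47 lost a call, among them 10 for AKT1S1 (interaction), and 5 for NRG1 and 4 for AKT2 (everolimus). Upper-quartile scaling moved the median of all genes by at most 0.08, and DESeq2 gave 3471 higher and 3762 lower calls with everolimus. Replicate numbers did not pair libraries: deviations of the 18 same-numbered pairs correlated at -0.176 to 0.0358, and 1 of 12 libraries correlated best with its own number. Of the differently numbered pairs, DMSO replicate 1 and SGI-1027 replicate 3 had the highest correlation, at 0.232. What these libraries share was not tested. With the replicate number as a block, 8, 9 and 9 members and 7084, 7879 and 8369 genes were called against DMSO, and no count of calls moved by over 1.5 times. ERBB3, ERBB4, IGF1, INSRR and FOXO6 had too few counts to pass the filter and were not tested, and low counts made INSR the least certain member.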

Other observations

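Further genes of the pathway lists, named by the same rule, are given here as values. EPHB1, an ephrin receptor, rose by 0.67 ± 0.07 in the combination (adjusted p = 9.91e-08). TIE1, an endothelial receptor, rose by 0.78 ± 0.12, 0.53 ± 0.13 and 0.65 ± 0.13 (adjusted p = 3.28e-05, 0.00135 and 1.80e-04) from 3.24 ± 0.142 normalized CPM, while the 3 endothelial markers summed to at most 0.403 CPM in any library. AKT1S1, the PRAS40 subunit of mTOR complex 1, fell, with a log2 fold change of -0.69 ± 0.09 in the combination (adjusted p = 2.72e-06). INPP5K, an inositol 5-phosphatase, rose by 0.78 ± 0.07 (adjusted p = 9.15e-09), and PREX2, a Rac exchange factor, by 0.85 ± 0.10 (adjusted p = 4.74e-07). SIRT3, a mitochondrial deacetylase, rose by 0.57 ± 0.06 in the combination (adjusted p = 4.41e-07). In the KLHL family, KLHL22 rose by 0.63 ± 0.07 in the combination (adjusted p = 3.17e-07). KLHL14 and KLHL13 fell in the combination, with log2 fold changes of -2.06 ± 0.11 and -1.27 ± 0.16 (adjusted p = 1.88e-11 and 1.52e-06). All p values are from the edgeR fit with Benjamini-Hochberg adjustment. These genes were picked by their calls in the combination, so their p values there are no independent test.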
